A study of Mus musculus with 6 samples.

Results

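The 9 genes described here belong to the complement system: the 3 chains of C1q (C1qa, C1qb and C1qc), the components C3 and C4b, the alternative-pathway proteins factor B (Cfb) and properdin (Cfp), and the receptors for the C3a and C5a peptides (C3ar1 and C5ar1). They were taken by symbol from a table of 55335 gene identifiers. RNA-seq had been performed on primary microglia of WT genotype, grown from brains of neonatal C57BL/6 mice and shaken off mixed cultures on day 14. The microglia spent 24 h in direct co-culture with neutrophils that had been isolated magnetically from spinal cord lesions on day 3 after a contusion injury, and were then recovered by flow sorting as Ly6G-negative cells. The 2 groups differed in the neutrophil donor: 3 libraries were co-cultured with neutrophils of WT mice (WT neutrophils) and 3 with neutrophils of mice that lack Cd177 in the whole body (Cd177 KO neutrophils). The donors were adult male C57BL/6 mice. The labels do not say whether the libraries of a group came from separate cultures or separate donor mice, so the p-values may measure technical spread between these samples only. No library of microglia alone, without neutrophils, was analysed here, so each difference is one between 2 co-cultures.

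Complement is a cascade of plasma and tissue proteins that marks surfaces for removal. C1q opens the classical pathway, in which C4 is cleaved. All pathways meet at C3, which deposits C3b on surfaces and releases C3a, and factor B and properdin build and stabilise the alternative-pathway convertase that cleaves more C3. In the central nervous system microglia are a main source of C1q, and C3 with its receptors is known for synapse removal and for the response to injury.

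Of the 9 genes, 3 were lower with Cd177 KO neutrophils (C3, Cfp and C3ar1), 1 was variable among the WT libraries (C5ar1), and 5 lay under 1 FPKM on average (C1qa, C1qb, C1qc, C4b and Cfb). FPKM counts sequenced fragments relative to transcript length in kilobases and to library size in units of 1e+06 fragments. Levels of different genes are set side by side on this scale, which rests on transcript lengths that are not known here. A minimum mean of 1 FPKM across all libraries left 11395 genes for limma, and 4 of the 9 complement genes were among them. Of these 4, 3 were called at an adjusted p under 0.05, all of them lower. Calls were frequent in this comparison: 43.3% of all genes tested were called, 18.8% lower and 24.5% higher with Cd177 KO neutrophils. With all libraries brought to one total, the lower share of all calls moved from 43.4% to 55.0%. The median log2 change was -1.25 over the 4 complement genes and 0.02 over all genes tested.

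**Figure D1:**
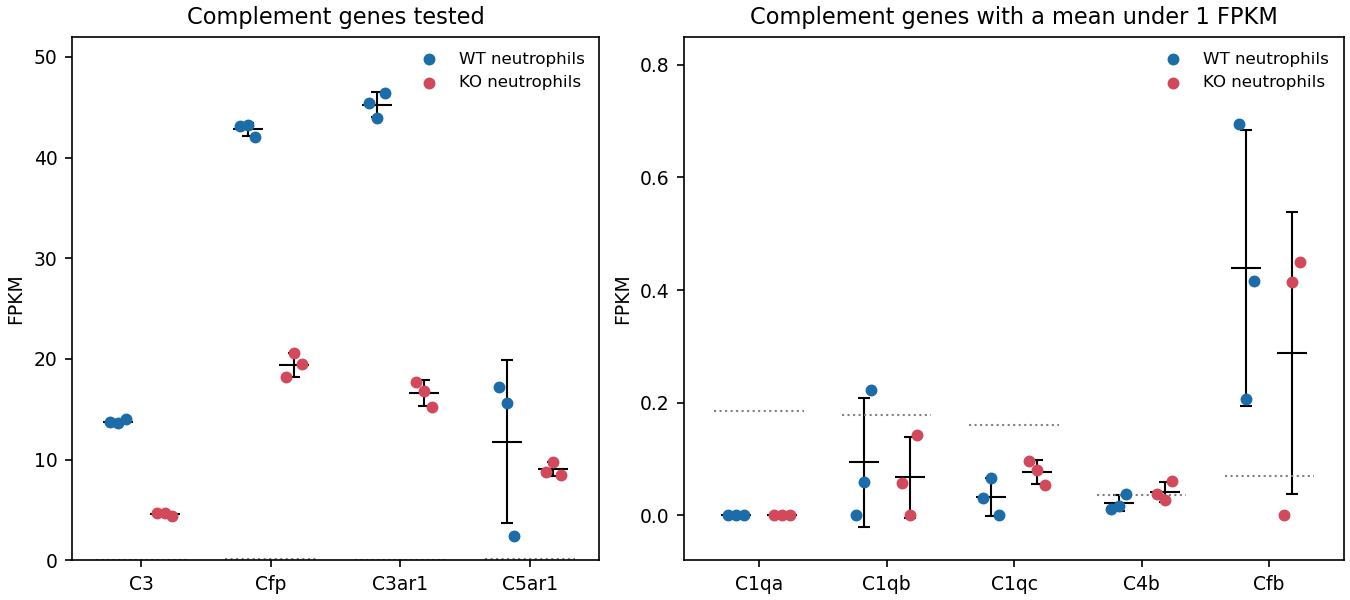
FPKM of the 9 complement genes in each library (points), with the mean and SD of 3 libraries per group (bars) and the estimated level of 3 fragments (dotted line, highest of the 6 libraries). The Cd177 KO points of C3, Cfp and C3ar1 lie below every WT point, 1 WT point of C5ar1 lies at 2.45 FPKM, and the 5 genes on the right stay at or under 0.694 FPKM.

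The libraries of a group were close to each other, with a Pearson correlation across the genes tested of 0.988 to 0.989 within groups and 0.956 to 0.959 between groups. Mitochondrially encoded genes held 11.1% to 11.3% of the FPKM sum with WT and 14.3% to 14.6% with Cd177 KO neutrophils. The microglia carried the WT allele in both groups, and Cd177 itself was near 0: 0.477, 0.113 and 0.151 FPKM with WT against 0.109, 0.0217 and 0.0845 FPKM with Cd177 KO neutrophils, which does not check the neutrophil genotype. Of 15 microglia markers, 5 reached a mean of 1 FPKM and were all called (1 lower, Cx3cr1, and 4 higher, among them Csf1r, Trem2 and Tyrobp), Sall1 and Fcrls were listed at 0, and P2ry12 stayed at or under 0.148 FPKM and Tmem119 at or under 0.793 FPKM. The summed level of this list was 307 to 311 FPKM with WT against 380 to 417 FPKM with Cd177 KO neutrophils. All 12 macrophage markers passed the filter, 3 of them lower and 5 higher, with summed levels of 2796 to 2896 FPKM and 2787 to 2836 FPKM. Beside these marker counts, 43.3% of all genes tested were called. P2ry12, Tmem119, Sall1 and Fcrls, which define homeostatic microglia, were thus under 1 FPKM in cells labelled as microglia, while markers shared with other macrophages were abundant. Lists for astrocytes and oligodendrocytes passed the filter with 1 of 10 genes each (Aldoc and Cnp, both higher), and the fibroblast list with 0 of 8.

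C3, the central component, fell about 3-fold (ENSMUSG00000024164, GRCm38 chr17:57203970-57228136, minus strand, 41 exons). Its level was 13.7, 13.6 and 14.0 FPKM in the 3 libraries with WT neutrophils. With Cd177 KO neutrophils it was 4.65, 4.68 and 4.41 FPKM. The groups did not overlap, and each kept within a narrow range, 13.8 ± 0.201 FPKM against 4.58 ± 0.147 FPKM (SD, n = 3). The ratio of the WT to the KO mean was 3.01, and the log2 change of FPKM + 1 was -1.40 (SE 0.0386, limma adjusted p = 1.81e-06). In all, 116 of the 11395 genes tested (1.02%) had a lower log2 change. Among the genes tested, C3 moved from the 68.2 percentile of level with WT to the 32.8 percentile with Cd177 KO neutrophils.

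C3ar1, the receptor for the C3a peptide, fell as well (ENSMUSG00000040552, GRCm38 chr6:122847138-122856161, minus strand, 2 exons). Its level was 45.4, 43.9 and 46.4 FPKM with WT against 17.7, 16.8 and 15.2 FPKM with Cd177 KO neutrophils. No KO value reached the lowest WT value, and the means were 45.2 ± 1.23 and 16.6 ± 1.26 FPKM (SD, n = 3). Its mean fell 2.73-fold. The log2 change was -1.40 with an SE of 0.0559 (limma adjusted p = 7.85e-06). The added 1 FPKM shrinks the change of the lower gene more, and with 0.1 FPKM added the log2 changes of C3 and C3ar1 were -1.57 and -1.44. Of all genes tested, 120 genes (1.05%) had a lower log2 change.

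Cfp encodes properdin, a positive regulator of the alternative pathway, and lies on chromosome X (ENSMUSG00000001128, GRCm38 chrX:20925454-20931555, minus strand, 9 exons). Its level was 43.1, 43.2 and 42.0 FPKM with WT against 18.2, 20.6 and 19.5 FPKM with Cd177 KO neutrophils. The groups were again apart, at 42.8 ± 0.654 and 19.4 ± 1.21 FPKM (SD, n = 3). Its mean fell 2.20-fold. The log2 change was -1.10 with an SE of 0.0465 (limma adjusted p = 9.81e-06), and 198 genes (1.74%) had a lower log2 change. For C3, C3ar1 and Cfp alike the exact two-sided permutation test of the means gave p = 0.1, the smallest value that 3 libraries against 3 allow. All Cd177 KO libraries lay below all WT libraries for these 3 of the 4 complement genes tested, and for 24.6% of all genes tested.

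**Figure D2:**
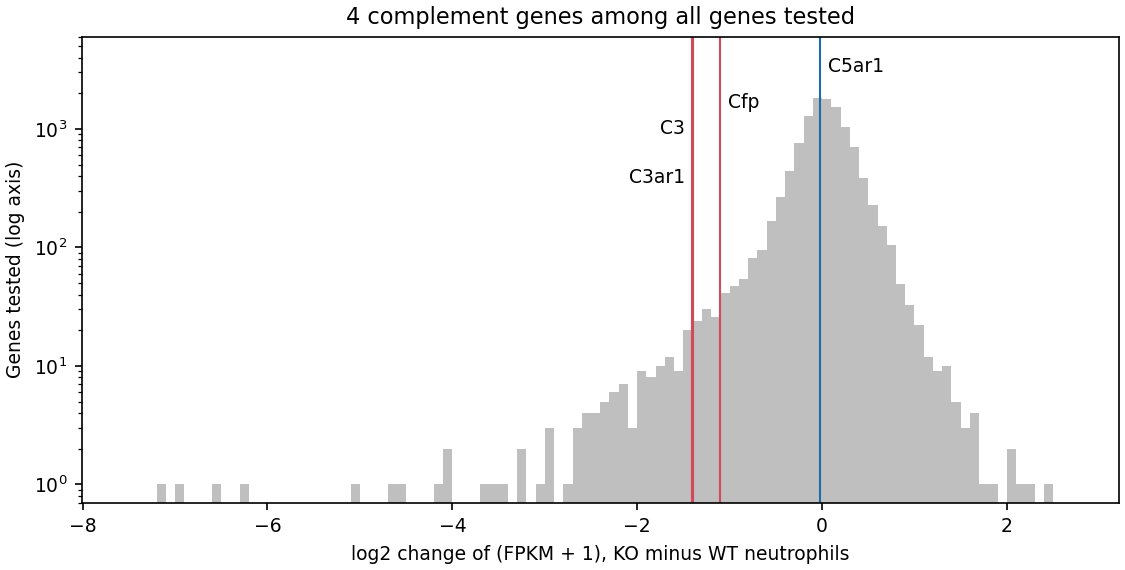
Histogram of the log2 change of FPKM + 1 (Cd177 KO minus WT neutrophils) of the 11395 genes tested, with the number of genes on a log axis and vertical lines at the 4 complement genes tested. C3 and C3ar1 share a position at -1.40 on this scale and Cfp stands at -1.10, in the thin left part of the distribution, and C5ar1 stands at -0.02, in its centre.

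The ratios between these 3 genes, taken within each library, differed between the groups as well. C3ar1 over Cfp was 1.05, 1.02 and 1.10 with WT and 0.975, 0.817 and 0.782 with Cd177 KO neutrophils. C3ar1 thus stood above Cfp in FPKM in each WT library and below it in each KO library. Which gene stands higher rests on the transcript lengths used, which are not known here. C3 over Cfp was 0.318, 0.314 and 0.333 with WT and 0.256, 0.227 and 0.226 with Cd177 KO neutrophils, and C3 over C3ar1 was 0.302, 0.309 and 0.302 against 0.262, 0.278 and 0.289. Each of these 3 ratios was lower in every KO library than in any WT library, with the smallest possible exact permutation p of 0.1. The test cannot pass 0.05 at this size, and for C3 against C3ar1 the gap between the groups was smaller than the SD of the KO ratios.

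**Figure D3:**
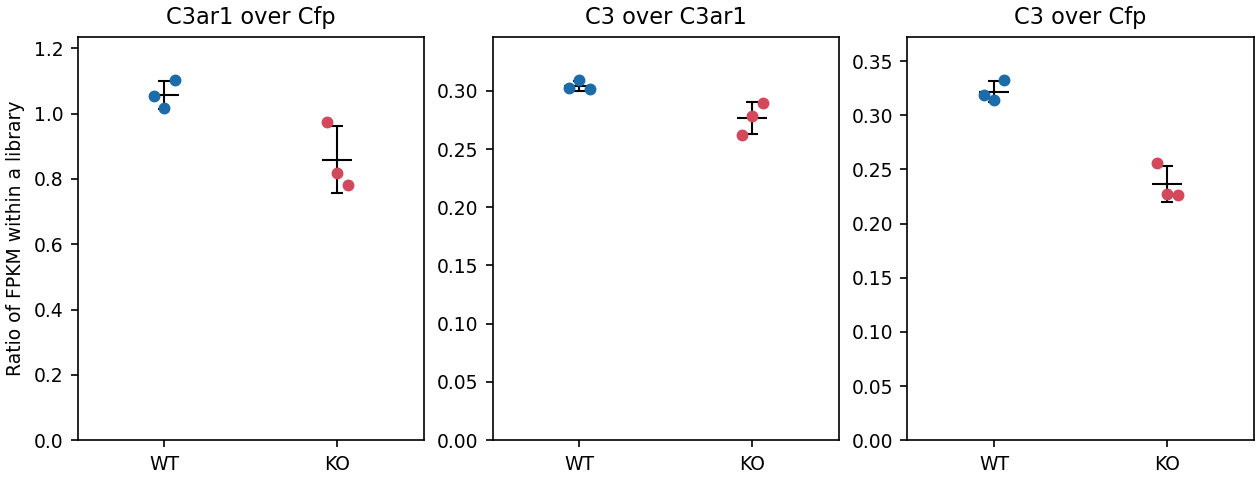
Ratio of the FPKM of 2 complement genes within each library (points), for WT and Cd177 KO neutrophils, with the mean and SD of 3 libraries (bars) and axes that start at 0. In each panel the 3 KO points lie below the 3 WT points, and the gap is narrowest for C3 over C3ar1, where the highest KO ratio is 0.289 and the lowest WT ratio 0.302.

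The 250 bases before the RefSeq start sites of C3, C3ar1 and Cfp are printed because these genes fell together. All are on the minus strand of GRCm38.p6 and are written 5′ to 3′ towards the gene, at chr17:57228137-57228386 for C3, chr6:122856158-122856407 for C3ar1 and chrX:20931556-20931805 for Cfp. Capitals mark matches on either strand to 6 short motifs, none of which overlap another match here.
C3: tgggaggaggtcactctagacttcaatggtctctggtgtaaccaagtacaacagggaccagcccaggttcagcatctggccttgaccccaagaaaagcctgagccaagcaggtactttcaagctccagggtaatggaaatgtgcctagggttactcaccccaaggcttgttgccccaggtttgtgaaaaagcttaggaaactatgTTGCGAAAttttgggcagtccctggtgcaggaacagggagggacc
C3ar1: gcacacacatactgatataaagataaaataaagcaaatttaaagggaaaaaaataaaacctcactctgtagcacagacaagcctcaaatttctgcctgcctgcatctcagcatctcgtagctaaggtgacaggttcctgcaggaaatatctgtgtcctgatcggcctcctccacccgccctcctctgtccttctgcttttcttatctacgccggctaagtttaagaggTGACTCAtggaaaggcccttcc
Cfp: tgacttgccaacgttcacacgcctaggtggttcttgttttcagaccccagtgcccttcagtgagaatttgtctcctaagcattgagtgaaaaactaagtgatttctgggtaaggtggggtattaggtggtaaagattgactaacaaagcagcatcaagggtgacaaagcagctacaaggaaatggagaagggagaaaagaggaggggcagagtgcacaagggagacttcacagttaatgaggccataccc
The motifs were NF-kB (GGANTTTCC), ISRE (GAAANNGAA), GAS (TTCNNNGAA), AP-1 (TGANTCA), C/EBP (TTGCNNAA) and PU.1 (GAGGAAGT). C3 held a C/EBP match from 45 to 38 bases before its start, a motif that 9.56% of 32851 mouse promoter windows of this length hold. C3ar1 held an AP-1 match from 22 to 16 bases before its start, and 6.75% of the windows hold one. The Cfp window held none of the 6 motifs, and no motif was shared among these 3 genes. A match is a description of the letters and not a measured site, and NF-kB (1.06% of windows), ISRE (7.13%), GAS (7.02%) and PU.1 (2.44%) had no match in these 3 windows.

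C5ar1, the main receptor for the C5a peptide, turned on 1 library (ENSMUSG00000049130, GRCm38 chr7:16246743-16259540, minus strand). Its level was 17.2, 15.6 and 2.45 FPKM with WT against 8.77, 9.80 and 8.49 FPKM with Cd177 KO neutrophils. WT replicate 3 lay below every KO library and the other 2 WT libraries lay above them, so the groups overlapped. The WT mean was 11.7 ± 8.09 and the KO mean 9.02 ± 0.690 FPKM (SD, n = 3), with coefficients of variation of 68.9% and 7.65%. The log2 change over all 6 libraries was -0.02 (SE 0.622, 95% interval -1.52 to 1.49, limma adjusted p = 0.985), and the exact permutation p was 0.6. Without WT replicate 3 the log2 change was -0.80 (SE 0.0744, limma adjusted p = 0.00119), and all 4 complement genes tested were then called lower. Leaving out WT replicate 1 or 2 instead gave 0.40 or 0.34. The interval over all libraries spans both a fall and a rise of more than 2-fold. In the same library C3, Cfp and C3ar1 were at 14.0, 42.0 and 46.4 FPKM, near the other WT libraries. What set C5ar1 apart in WT replicate 3 was not tested.

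**Figure D4:**
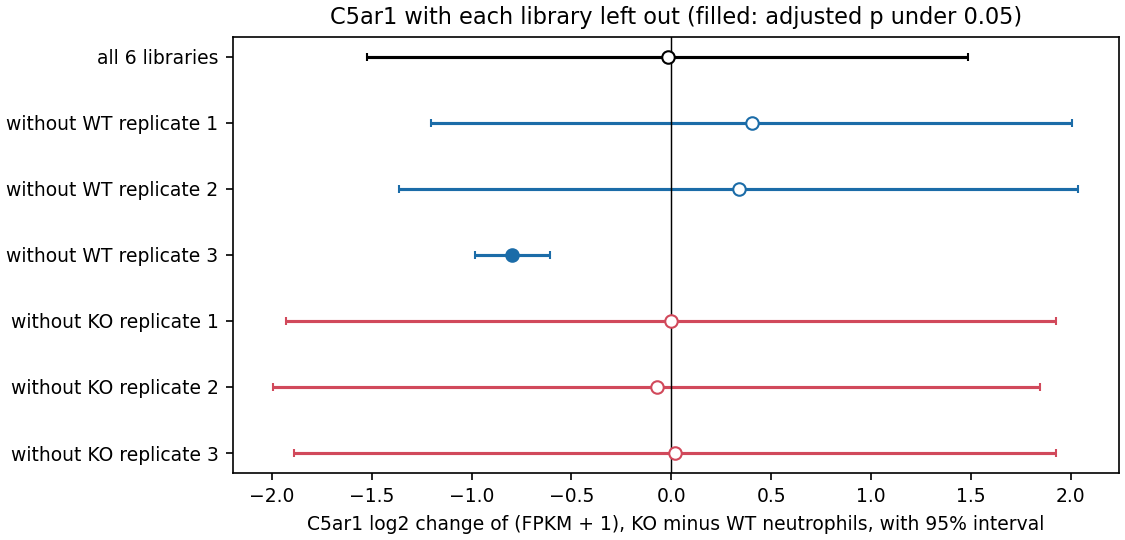
Log2 change of C5ar1 on FPKM + 1 (Cd177 KO minus WT neutrophils) with all 6 libraries and with each library left out, with the 95% interval of limma as bars and filled points at an adjusted p under 0.05. The interval excludes 0 only without WT replicate 3, where the change is -0.80, and the other estimates lie between -0.07 and 0.40.

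Among the 4 genes tested, the order of levels with WT neutrophils was C3ar1, Cfp, C3 and C5ar1. With Cd177 KO neutrophils it was Cfp, C3ar1, C5ar1 and C3. The order of genes with close levels, such as C3ar1 and Cfp, rests on the transcript lengths used. C3ar1 and Cfp were neighbours in both orders, and their libraries did not overlap in either group, with C3ar1 at 43.9 to 46.4 and Cfp at 42.0 to 43.2 FPKM with WT, and at 15.2 to 17.7 and 18.2 to 20.6 FPKM with Cd177 KO neutrophils. C3 (13.6 to 14.0 FPKM) and C5ar1 (2.45 to 17.2 FPKM) did not differ beyond their spread with WT neutrophils. With Cd177 KO neutrophils C5ar1 (8.49 to 9.80 FPKM) lay above C3 (4.41 to 4.68 FPKM) in every library.

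The 3 chains of C1q, which together form the recognition molecule of the classical pathway, were at or near 0 in all 6 libraries. Their genes lie side by side on chromosome 4, on the minus strand of GRCm38, C1qb at chr4:136880129-136886187, C1qc at chr4:136889804-136893065 and C1qa at chr4:136895917-136898803. C1qa was listed at 0 in each library. C1qb was at 0, 0.0590 and 0.222 FPKM with WT against 0.0576, 0 and 0.143 FPKM with Cd177 KO neutrophils (exact permutation p = 0.7). C1qc was at 0.0306, 0.0665 and 0 FPKM with WT against 0.0970, 0.0793 and 0.0537 FPKM with Cd177 KO neutrophils (exact permutation p = 0.2). In both genes the groups overlapped. By the estimated depth of 15.6 to 19.2, in units of 1e+06 fragments per library, 3 fragments correspond to 0.150 to 0.185 FPKM for C1qa, and 1 value of C1qb and none of C1qc lay above its own limit of this kind. A difference in C1q between the groups was therefore not detectable at this depth. For comparison, all 20 ubiquitous genes passed the filter, and the macrophage genes Cd68 and Lyz2 were at 372 ± 7.48 and 494 ± 17.1 FPKM (SD, n = 3) with WT neutrophils.

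C4b, the C4 component of the classical and lectin pathways, was likewise near 0 (GRCm38 chr17:34728380-34743882). It was at 0.0104, 0.0167 and 0.0381 FPKM with WT against 0.0378, 0.0264 and 0.0611 FPKM with Cd177 KO neutrophils, with overlapping groups (exact permutation p = 0.3). Its near-identical neighbour C4a, with which it can share fragments, was at or under 0.0201 FPKM in each library. Cfb, the protease of the alternative-pathway convertase (GRCm38 chr17:34856374-34862518), was at 0.694, 0.207 and 0.417 FPKM with WT against 0, 0.414 and 0.450 FPKM with Cd177 KO neutrophils. Its groups overlapped (exact permutation p = 0.5), and its exons overlap those of the read-through gene Gm20547, so the split of fragments between them is uncertain. Gm20547 was at 0.360 FPKM in KO replicate 1, where Cfb was at 0. It was at 0.173 FPKM in WT replicate 2, where Cfb was lowest among the WT libraries, and at 0 in the others. Within the alternative pathway, properdin was thus abundant in both groups while the gene for the protease it stabilises stayed under 1 FPKM.

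Of 51 other complement genes, 12 passed the filter, 6 were called (2 lower and 4 higher, where 43.3% of all genes tested were called) and 20 were listed at 0 in all libraries. Their median log2 change was 0.05, beside 0.02 over all genes tested. The soluble activators were mostly at or near 0. Of 6 classical-pathway genes only C1ra, the C1r protease, passed the filter, at 1.80, 2.07 and 1.62 FPKM with WT against 1.62, 1.87 and 1.67 FPKM with Cd177 KO neutrophils (log2 change -0.06, limma adjusted p = 0.612). C1s1 was at or under 0.0332 FPKM, and C2, the classical-pathway counterpart of factor B, was at 0.0958 to 0.245 FPKM. Exons of C2 also overlap those of Gm20547, so its level has the same limit as that of Cfb. Of 8 lectin-pathway genes only Fcna, a ficolin, passed, with a log2 change of 0.20 (limma adjusted p = 0.278). Cfd, the protease that cleaves factor B, was at or under 0.0268 FPKM. None of 7 terminal-pathway genes passed, and Hc, the gene of C5, was listed at 0 in all libraries.

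Among 11 soluble regulators, Clu was the only gene that passed the filter, and it fell. Clu encodes clusterin, which binds the terminal complex. It was at 24.5, 22.9 and 19.9 FPKM with WT against 7.82, 9.96 and 11.5 FPKM with Cd177 KO neutrophils, without overlap, and its mean fell 2.30-fold (log2 change -1.13, SE 0.137, limma adjusted p = 0.00103). The C1 inhibitor Serping1 was at or under 0.0275 FPKM. Of 8 membrane regulators, Cd59a, an inhibitor of the terminal complex, and Cr1l, an inhibitor of the C3 convertases, passed and were not called, with log2 changes of 0.26 (limma adjusted p = 0.227) and -0.05 (limma adjusted p = 0.509). The interval of the difference ran from -0.12 to 0.64 for Cd59a and from -0.17 to 0.08 for Cr1l. Without KO replicate 2 Cd59a was called higher, with a log2 change of 0.42 (limma adjusted p = 0.0303). Cd55, which dissociates the convertases, was listed at 0 in all libraries.

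The receptors did not move one way. Of 10 further genes for receptors and binding proteins, 7 passed the filter, 1 fell and 4 rose. Of all genes tested, 18.8% were called lower and 24.5% higher. Itgax, the alpha chain of complement receptor 4, was at 4.51, 4.18 and 4.19 FPKM with WT against 9.59, 9.53 and 9.29 FPKM with Cd177 KO neutrophils. Its groups did not overlap, and its mean rose 2.21-fold (log2 change 0.98, SE 0.0439, limma adjusted p = 1.25e-05). Itgb2, the beta chain that receptors 3 and 4 share, fell from 53.3, 53.4 and 54.7 to 39.3, 37.5 and 37.3 FPKM (log2 change -0.49, SE 0.0287, limma adjusted p = 4.20e-05). Itgam, the alpha chain of receptor 3, was at 8.12, 23.9 and 26.7 FPKM with WT against 15.4, 18.1 and 15.2 FPKM with Cd177 KO neutrophils. WT replicate 1 stood below all other libraries, and the log2 change was -0.10 (SE 0.412, limma adjusted p = 0.857).

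Itgam shares its position with the gene model Gm49368, which was at 49.6, 35.2 and 28.3 FPKM with WT against 19.3, 17.4 and 19.6 FPKM with Cd177 KO neutrophils. Gm49368 was thus highest in the library in which Itgam was lowest. The sum of the pair was 57.7, 59.1 and 55.0 FPKM with WT against 34.7, 35.5 and 34.7 FPKM with Cd177 KO neutrophils, without overlap (exact permutation p = 0.1, the smallest possible). Without WT replicate 1 Itgam alone was called, with a log2 change of -0.61 (limma adjusted p = 0.00539), and without WT replicate 2 or 3 its sign turned, to at most 0.19. Calr and Lrp1, which bind C1q-coated material at the phagocyte surface, rose with log2 changes of 0.32 (SE 0.0254, limma adjusted p = 0.000157) and 0.26 (SE 0.0225, limma adjusted p = 0.000244). The C1q-binding proteins Cd93 and C1qbp differed by less: 0.08 (limma adjusted p = 0.0255) and 0.02 (limma adjusted p = 0.537). On a common library sum Cd93 was not called (limma adjusted p = 0.298) and the sign of C1qbp turned (log2 change -0.03). C5ar2, the second C5a receptor, was at or under 0.0201 FPKM.

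**Figure D5:**
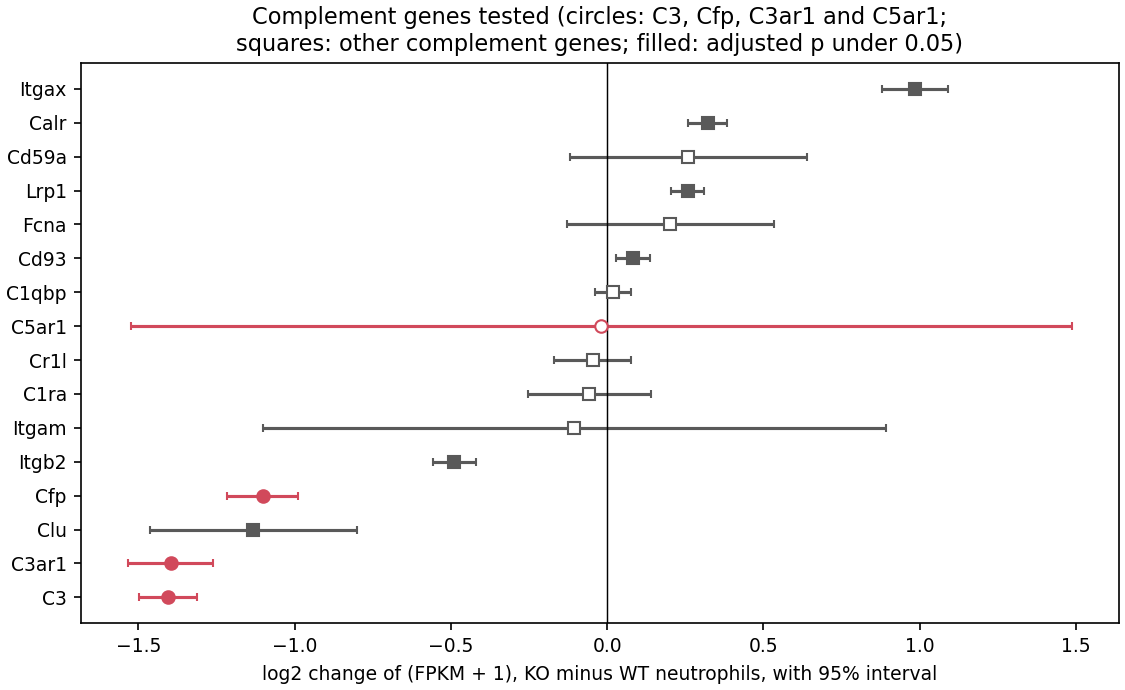
Log2 change of FPKM + 1 (Cd177 KO minus WT neutrophils) with the 95% interval of limma for the 16 complement genes tested, ordered by size, with the 4 leading genes as circles, the other 12 as squares and filled symbols at an adjusted p under 0.05. C3, C3ar1, Clu and Cfp lie at or below -1.10, Itgax lies alone near 0.98, and the intervals of C5ar1 and Itgam are the widest.

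The genes most like C3 in their profile over the 6 libraries were Junb, Marcksl1 and Adgre1. Likeness was the root-mean-square distance between profiles of log2(FPKM + 1) centred on their own means, which was 0.0271, 0.0335 and 0.0343 in that order. Junb encodes a subunit of AP-1, Marcksl1 an actin-binding protein and Adgre1 the F4/80 surface antigen of macrophages. Their means were 72.2, 43.0 and 101 FPKM with WT against 26.3, 15.8 and 39.3 FPKM with Cd177 KO neutrophils. For C3ar1 the closest genes were H2-T24, Zc3h12c and C3 itself, at distances of 0.0405, 0.0420 and 0.0435. C3 and Cfp were 0.162 apart, and C3 and C5ar1 1.05 apart. All these profiles share the same 6 libraries, so the difference between the groups enters each distance.

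Of the neutrophil markers, Lcn2 and Mmp9 were lower with Cd177 KO neutrophils, as C3, C3ar1 and Cfp were, in cells sorted as Ly6G-negative. Neutrophils are known to carry properdin and the C3a and C5a receptors. Of 20 neutrophil markers, 2 passed the filter and both fell, where 18.8% of all genes tested were called lower. Lcn2 fell from 109, 113 and 109 to 0.0479, 0.314 and 0.237 FPKM, and Mmp9 from 7.08, 7.11 and 7.21 to 0.770, 1.06 and 1.13 FPKM. The summed level of the list was 119 to 123 FPKM with WT against 2.13 to 3.40 FPKM with Cd177 KO neutrophils. Lcn2 and Mmp9 are also made by activated macrophages, and without them the other 18 genes summed to 2.91 to 3.45 FPKM with WT against 1.30 to 2.03 FPKM with Cd177 KO neutrophils. The defining genes S100a9, Ly6g, Ltf, Elane, Mpo, Retnlg and Stfa2l1 were listed at 0 in all libraries. S100a8 was at 0.310, 0.456 and 0.449 FPKM with WT against 0.181, 0 and 0.150 FPKM with Cd177 KO neutrophils. Camp was at 0.384, 0.237 and 0.234 against 0.156, 0 and 0.114 FPKM. S100a8 and Camp were lower in every KO library, but only 2 values of S100a8 and 1 of Camp lay above the estimated level of 3 fragments. Prtn3 and Ngp had higher means with Cd177 KO neutrophils, with overlapping groups. Mcemp1 was at 0.996, 0.696 and 1.13 FPKM with WT against 0.245, 0.251 and 0.518 FPKM with Cd177 KO neutrophils, and Csf3r at 0.744, 0.574 and 0.546 against 0.283, 0.223 and 0.399 FPKM. Both lay lower in every KO library. Cxcr2 was at 0.362, 0.626 and 0.346 against 0.148, 0.331 and 0.399 FPKM, with overlapping groups. These 3 genes lay above the estimated level of 3 fragments in all 6 libraries. In the same WT libraries Cfp was at 42.0 to 43.2 FPKM and C3ar1 at 43.9 to 46.4 FPKM. The part of Lcn2, Mmp9 and the other markers in the lower complement levels was not tested. The mitochondrial share was 11.1% to 11.3% with WT and 14.3% to 14.6% with Cd177 KO neutrophils. On a common sum without mitochondrial genes the log2 changes of C3, C3ar1 and Cfp were -1.53, -1.43 and -1.13. In bulk RNA, fewer cells that express a gene and less RNA of it per cell cannot be told apart.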

How the data were processed

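RNA-seq was analysed from 6 libraries, 3 per neutrophil genotype. Groups and replicate numbers came from the sample titles. The submitters' processing notes name fastp 0.17.1, HISAT2 2.1.0, DESeq2 1.18.1 and R 3.4.3. The authors deposited 1 table of FPKM values with a column per library, which is scaled per length and library size. The program that made the FPKM values, the genome build and the annotation are not given in the sources used here. No value column was left out.

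Symbols and positions came from GENCODE M21 (GRCm38), in which 55154 of 55335 identifiers were found. It may not be the annotation of the authors. Promoter windows were taken from RefSeq (GRCm38.p6), in which 6 of the 9 complement genes matched. Only windows whose RefSeq and GENCODE start sites lie within 4 bases and whose genes were called are printed.

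Depth is not given with FPKM. The commonest step of low values in single-transcript genes, read as 1 fragment, gave depths of 15.6 to 19.2 in units of 1e+06 fragments. Only 23.5% to 24.4% of low values came within 0.05 of a whole fragment, against 10% by chance. Fragment numbers were therefore not recovered, no count test was run, and the limits of 3 fragments are approximate and cover counting error only.

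The test was limma 3.58.1 in R 4.3.3 (lmFit, eBayes with a trend) on log2(FPKM + 1), Cd177 KO minus WT neutrophils, without covariates, for genes averaging 1 FPKM or more. This scale understates the change of low genes. Benjamini-Hochberg adjustment ran over 11395 genes, and an adjusted p under 0.05 was a call. Single values were compared by an exact two-sided permutation test. The script was tested on simulated data.

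Alternative settings were no filter, a pseudocount of 0.1, a mean of at least 5 FPKM, a common sum with and without mitochondrial genes, median centring, quantile normalization, no trend, array weights, a replicate block and leaving out each library. The sum of Itgam with Gm49368, the neutrophil list without Lcn2 and Mmp9, and the count of genes with 1 library apart were added after the data were seen.

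All 9 complement genes were named, with a listed set of other complement genes, up to 3 called genes of each complement list by p, up to 3 genes of a marker list by mean FPKM, microglia markers at 0, and the 3 profiles closest to the 2 largest changes. Fcna, C1qbp and the last of the called receptors were added to complete the set tested. Cx3cr1, Csf1r, P2ry12, Tmem119, S100a8, Camp, Prtn3, Ngp, Mcemp1, Csf3r, Cxcr2 and the neutrophil markers at 0 lie outside this rule and were chosen after their values were seen. Some listed genes are not reported here. Members and lists were chosen with earlier results of these data known.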

Additional observations from a re-analysis of the deposited data

How the results depend on the processing

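C3, C3ar1 and Cfp were called lower under each of 16 alternatives, with log2 changes of -1.57 to -1.38, -1.48 to -1.34 and -1.18 to -1.06. The number of the 9 genes called was 3 under each alternative except without WT replicate 3, where it was 4. The number of other complement genes called ran from 5 to 7, and that of all genes called from 3763 to 4931. The log2 change of C5ar1 (-0.02) was 0.042 with a pseudocount of 0.1 and 0.031 on a common sum without mitochondrial genes. It ran from -0.80 to 0.40 when 1 library was left out, and WT replicate 3 decided it. The difference of mean FPKM of C1qb (-0.0269) ran from -0.0737 to 0.0374 when 1 library was left out, all of it within the level of 3 fragments. Cd93 lost its call under 7 of 16 alternatives.

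No pairing by replicate number was visible, with correlations of same-numbered deviations of -0.0751, -0.0524 and -0.00518. The labels do not say whether same-numbered libraries shared a culture or a day, and these values cannot decide it. With a replicate block 4212 genes were called against 4930, 4026 of them shared, and the calls of C3 (log2 change -1.40, limma adjusted p = 0.000293), C3ar1 and Cfp were kept.

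The count tests planned as another alternative were not run, since fragment numbers were not recovered. Depth is known only as an estimate, and it limits C1qa, C1qb, C1qc and C4b, for which neither a change nor its absence can be read.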

Other observations

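C5ar1 was not alone in standing apart in 1 library. Counted after C5ar1 had been seen, there were 55 cases among 11395 genes of 1 library at least 3-fold away from the other 2 of its group, those 2 lying within 1.5-fold of each other and the higher level being at least 5 FPKM. Each library held 5 to 11 such genes, and WT replicate 3 held 11, of which 7 were low and 4 high in that library. C5ar1 was the one complement gene among them. Itgam in WT replicate 1, at 8.12 FPKM against 23.9 and 26.7 FPKM in the other WT libraries, fell just short of the 3-fold limit. The cause of these single-library values was not tested.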
